A study of Mus musculus with 14 samples.

Results

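The genes described here encode enzymes of fatty acid and sterol synthesis and their regulators. The 29 genes were listed by name: Acly, Acaca, Acacb, Fasn and Me1 for the making of fatty acids, Elovl6, Scd1, Scd2, Fads1 and Fads2 for lengthening and desaturating them, Acat2, Hmgcs1, Mvk, Pmvk, Mvd, Idi1 and Fdps for the mevalonate arm, Fdft1, Sqle, Lss, Cyp51, Msmo1, Nsdhl, Sc5d and Dhcr7 for the steps between squalene and cholesterol, and Srebf1, Srebf2, Insig1 and Stard4 as regulators and a sterol carrier. Of these, 28 had a probe set that carries their symbol alone, among 18193 such genes on the array, and 27 passed the filter on low signals that left 10916 genes for testing. Acat2 was not analysed here, and Acacb, the mitochondrial form of acetyl-CoA carboxylase, was too dim to be tested, with log2 values of 1.87 to 4.41 over the 14 arrays.

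Mouse CD4+ T cells, taken from the spleen and from peripheral and mesenteric lymph nodes, were polarised in 3 ways in culture. Acetate, which gut bacteria release when they ferment fibre, was added or left out, and RNA was read on Affymetrix arrays, named as Mouse 430 2.0 for the Treg and Th1 samples. The groups were Th17 cultures with acetate (3 arrays) and without (3 arrays), Treg cultures with acetate (2) and without (2), and Th1 cultures with acetate (2) and without (2). All 6 groups received hIL-2. Th17 cultures also received hTGF-b1, the mouse cytokines IL-6, IL-1b, IL-23, IL-21 and TNF-a, and antibodies against IL-4 and IFN-gamma, Treg cultures hTGF-b1, and Th1 cultures mIL-12 with an antibody against IL-4. The added compound is called acetate (10 mM), following the design text, but for the Treg and Th1 cultures the protocol entries say acetone, also at 10 mM. The protocols give 5 days of culture, the design text 6 to 7 days. No source used here gives the strain, the age or how many animals were used. It is also not stated that replicates are separate animals or cultures, and the spread behind each p-value may therefore be technical.

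Fatty acid synthesis starts in the cytosol, where ATP citrate lyase splits citrate into acetyl-CoA, acetyl-CoA carboxylase turns it into malonyl-CoA and fatty acid synthase builds palmitate. The sterol route joins acetyl-CoA units into HMG-CoA and mevalonate, then into isoprenoids, squalene and cholesterol. Both routes are switched on by the SREBP transcription factors, encoded by Srebf1 and Srebf2, which the INSIG proteins hold back in the endoplasmic reticulum when sterols are plentiful. T cells that divide after activation are known to turn both routes up to make membrane.

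SREBPs are known to act together with the factor NF-Y, which binds the CCAAT box, so the promoters of 4 members are shown. Mvk and Nsdhl were higher with acetate, Fasn was lower, and Hmgcs1 passed the test in no acetate comparison and is the one member whose window holds the short sterol element TCACNCCAC. Each line gives the 250 bases before the start of the gene on its own strand, 5′ to 3′, from RefSeq on GRCm38.p6, with matches to the searched motifs in capitals. ATTGG is CCAAT read on the other strand, and TCACCCCAC in Hmgcs1 is the sterol element. The windows are chr5:114444019-114444268 on the plus strand for Mvk, chrX:72918271-72918520 on the plus strand for Nsdhl, chr13:119690101-119690350 on the plus strand for Hmgcs1 and chr11:120824548-120824797 on the minus strand for Fasn.
Mvk: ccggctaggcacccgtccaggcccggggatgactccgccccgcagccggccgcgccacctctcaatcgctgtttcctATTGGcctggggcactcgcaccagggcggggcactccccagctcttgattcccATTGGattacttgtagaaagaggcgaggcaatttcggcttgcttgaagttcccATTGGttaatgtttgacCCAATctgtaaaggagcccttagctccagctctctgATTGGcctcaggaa
Nsdhl: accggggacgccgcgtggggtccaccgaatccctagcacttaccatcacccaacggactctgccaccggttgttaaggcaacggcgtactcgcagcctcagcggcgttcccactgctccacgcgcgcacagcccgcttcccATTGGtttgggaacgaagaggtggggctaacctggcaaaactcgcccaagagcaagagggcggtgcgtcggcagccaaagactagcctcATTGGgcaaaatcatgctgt
Hmgcs1: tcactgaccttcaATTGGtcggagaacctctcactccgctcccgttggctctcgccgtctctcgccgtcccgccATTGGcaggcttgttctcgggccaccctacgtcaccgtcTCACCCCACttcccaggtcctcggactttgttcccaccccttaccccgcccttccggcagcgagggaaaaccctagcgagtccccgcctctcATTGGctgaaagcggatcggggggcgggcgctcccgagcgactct
Fasn: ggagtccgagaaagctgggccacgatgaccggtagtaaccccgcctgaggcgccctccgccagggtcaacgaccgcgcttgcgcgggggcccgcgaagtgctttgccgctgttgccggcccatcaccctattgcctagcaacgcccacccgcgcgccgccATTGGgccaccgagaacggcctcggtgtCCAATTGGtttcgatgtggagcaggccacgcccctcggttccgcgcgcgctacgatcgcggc

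The Mvk promoter held 5 CCAAT boxes on either strand, that of Hmgcs1 held 3 beside the sterol element, that of Nsdhl held 2, and that of Fasn held 3, of which 1 pair overlaps in the run CCAATTGG. RefSeq promoter windows of 300 bases, which add the 50 bases after the start, matched 22 of the 29 genes by symbol, and a gene with several starts was counted if any of its windows held the motif. CCAAT stood in 18 of the 22 (81.8%), against 42.8% of the 8919 tested genes with a window and 41.1% of all 27025 genes with one. The E-box CACGTG stood in 3 of the 22 (13.6%), against 11.9% of the tested genes, and TCACNCCAC in 1 (4.55%), against 1.40%. Of the 18 genes with a CCAAT box, 7 rose with acetate in some comparison (Me1, Mvk, Pmvk, Mvd, Lss, Msmo1 and Nsdhl). Another 3 fell (Acly, Fasn and Insig1), and the other 8 had no call, among them Hmgcs1 and the untested Acacb. Per acetate comparison, 3.98% (Th1) to 31.8% (mean of the subsets) of all genes tested were called in either direction. The share of all genes called in at least 1 of them is not given here. The called members Fads1, Scd1, Fdps, Fdft1 and Stard4 had no promoter window. Whether the calls go with the CCAAT box was not tested.

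All values below are log2(signal + 3) after quantile normalization over the 14 arrays, where a difference of 1 is a 2-fold change for genes well above the added 3, and less than the true change for dim genes. Differences are given with the standard error of the limma fit, and a gene was called where limma's p, adjusted by Benjamini-Hochberg across the 10916 genes, was under 0.05. Arrays within a group correlated at 0.940 to 0.983, but their trimmed mean signal as deposited ran 53.2 to 116.0, so brightness was unequal before normalization. The 18S rRNA signal as deposited was 2809 to 4140 in Th17 controls, 582 to 3134 in Treg controls and 298 to 609 in Th1 controls. Its part in the results was not tested. In these bulk samples fewer cells of a type and less RNA per cell cannot be told apart. Il17a was at 9.23 to 12.45 on the 6 Th17 arrays and at 2.13 to 4.23 on all others. Foxp3 was at 5.79 and 6.11 with acetate and at 8.16 and 8.59 without it in Treg cultures, and Th17 control arrays, at 5.87 to 6.79, overlapped the Treg acetate arrays. Tbx21 was at 7.94 to 8.94 on Th1 arrays, above every other array. Summed over the Th1 markers Tbx21, Ifng and Cxcr3, Th1 and Treg controls overlapped, at 24.0 to 26.8 and 26.5 to 26.7. Of these genes, 1 was called higher in Treg than in Th1 controls. Of the lists for cells known for lipid synthesis, the adipocyte genes Adipoq and Lep lay between 1.75 and 3.24 and the liver genes Alb, Apoa1 and Ttr between 1.67 and 3.63 on all 14 arrays, where the filter stood at a mean of 3.60. Within groups the members scattered like other genes, with a median SD of 0.28 against 0.29 over all genes, the lowest 0.12 for Mvk and the highest 0.61 for Fads2.

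In Th17 cultures 5 of 14 sterol enzymes rose with acetate and 3 of 9 fatty acid enzymes fell. Of 27 members, 9 were called, 5 higher and 4 lower, against 20.3% of all genes tested (11.7% higher and 8.66% lower). The 5 that rose were all sterol enzymes: Mvk, Pmvk, Fdps, Fdft1 and Nsdhl. The 4 that fell were the fatty acid enzymes Acly, Fasn and Fads1, and Insig1. Over the 14 sterol enzymes tested the median difference was 0.48, with 12 positive, and over the 9 fatty acid enzymes −0.44, with 6 negative. Without quantile normalization the median of all genes itself moved to −0.29, 1 member was called higher (Pmvk) and 4 lower, and the sterol median was 0.12, which is 0.41 above that of all genes. With the probe sets of a gene averaged, 1 sterol enzyme was called higher (Pmvk) and 2 fatty acid enzymes lower (Fasn and Acaca). Acly and Fads1 lost their calls in that setting, and Acaca was not called in the main setting. Leaving out Th17 control replicate 2 or 3 left 5 members called, 3 higher and 2 lower. Acetate arrays lay wholly above control arrays for 9 members and wholly below for 5, where 21.8% and 19.3% of all genes did so. Marker sums of other cells also differed between the arms: the summed log2 value of Cd8a and Cd8b1 was 12.7 to 14.8 with acetate and 9.67 to 12.7 without, and that of the mast cell and basophil genes Cpa3, Kit and Mcpt8 was 8.72 to 11.4 and 12.8 to 13.9. The summed log2 value of the Th17 markers was higher with acetate, at 20.0 to 21.6 against 17.6 to 17.9 without. That of the Treg markers was lower, at 21.2 to 21.6 against 22.9 to 23.8. The part of any of these sums in the result was not tested.

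In Treg cultures 8 members were called, all higher: the sterol enzymes Mvk, Mvd, Fdps, Fdft1 and Lss, the fatty acid genes Me1 and Scd1, and Stard4, which carries cholesterol between membranes. The share over all genes tested was 12.5% (7.04% higher, 5.44% lower). The median difference was 0.64 over the 14 sterol enzymes, with 11 positive, and 0.37 over all 27 members, against 0.03 over all genes. Acetate arrays lay wholly above control arrays for 15 members and wholly below for 1, where 35.1% and 29.6% of all genes did so. As deposited, 4 were called, all higher, and the count was 2 or 5 without acetate replicate 1 or 2 and 5 or 3 without control replicate 1 or 2. The 3′ to 5′ signal ratio of Gapdh, a measure of RNA quality, was 1.02 to 1.03 in Treg acetate arrays and 1.22 to 1.23 in Treg control arrays, and the summed log2 value of Cd8a and Cd8b1 was 14.1 to 14.2 and 12.9 to 13.2. The summed log2 values of the B cell and T cell markers were lower with acetate, at 10.8 to 11.1 and 37.8 to 38.9, against 12.2 on both control arrays and 40.1 to 40.7. That of the Treg markers was also lower, at 24.5 to 24.8 against 26.3 to 26.8. That of the Th1 markers was higher, at 27.0 to 27.1 against 26.5 to 26.7. The part of any of these in the results was not tested.

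In Th1 cultures 0 of 27 members passed the limma test, against 3.98% of all genes (2.07% higher and 1.91% lower), and 3 had an unadjusted p under 0.05 (Mvk, Fasn and Srebf1). The members' median difference was −0.13, and 0.16 without quantile normalization, where the median of all genes was 0.23. Sterol enzymes had a median of 0.16, with 9 of 14 positive. Acetate arrays lay wholly above control arrays for 5 members and wholly below for 5, where 22.1% and 21.0% of all genes did so. The summed log2 value of the T cell markers was 37.1 to 39.0 with acetate and 39.6 to 40.8 without. That of the Th1 markers was 27.7 to 28.9 and 24.0 to 26.8. The 3′ to 5′ signal ratio of Actb was 1.10 to 1.27 with acetate and 1.28 to 1.40 without. The 18S rRNA signal as deposited was 879 to 1576 and 298 to 609. The part of any of these was not tested. Without Th1 control replicate 2, on which Pmvk stood at 9.02 against 7.42 on replicate 1, Pmvk was called higher (1.16, adjusted p = 0.038) and the members' median was 0.09.

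**Figure D1:**
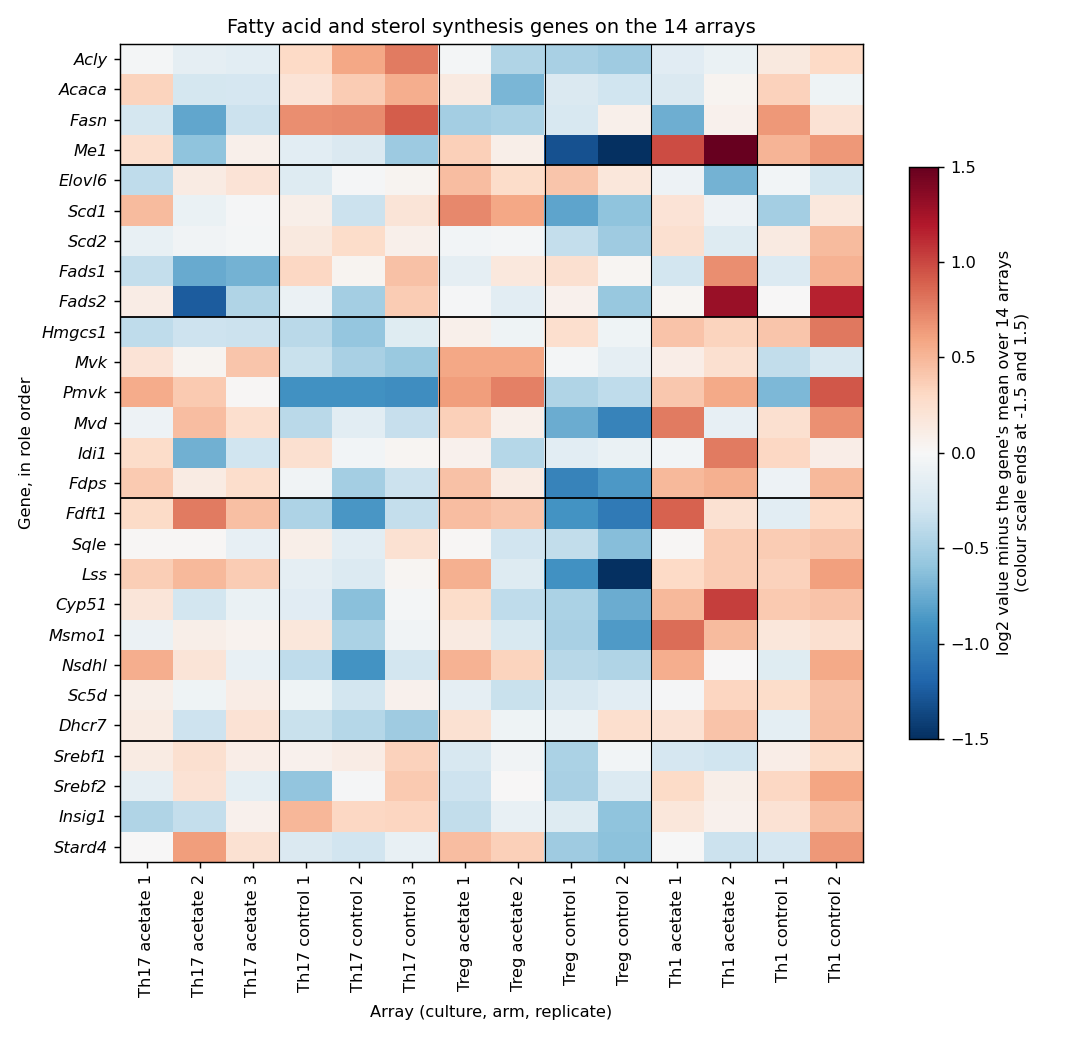
Log2 value of each of the 27 tested members on each of the 14 arrays, minus the gene's mean over all arrays; columns are arrays, rows are genes in role order, red is above and blue below the gene's mean. The Treg control columns are blue for Me1, Fdps, Fdft1 and Lss, and the Th17 control columns are red for Acly and Fasn and blue for Pmvk and Mvk.

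Among the genes that make fatty acids, Fasn, the synthase itself, fell with acetate in Th17 cultures. It read 8.38, 7.86 and 8.32 on the acetate arrays, against 9.35, 9.36 and 9.55 on the control arrays, a difference of −1.23 ± 0.21 (adjusted p = 0.0019), or 0.427 times the control level. In Treg cultures it read 8.13 and 8.17 with acetate, against 8.40 and 8.72 in control arrays, and in Th1 cultures 7.91 and 8.71, against 9.29 and 8.86. The acetate arrays were below every control array in each of the 3 subsets, but the differences in Treg (−0.42 ± 0.26, adjusted p = 0.34) and Th1 cultures (−0.76 ± 0.26, adjusted p = 0.11) did not pass. The Th17 call held under each of the 20 alternative settings run, with adjusted p from 5.1e-04 to 0.011.

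Acly, the citrate lyase that supplies acetyl-CoA, fell in Th17 cultures. Its values were 8.93, 8.82 and 8.80 with acetate, against 9.26, 9.55 and 9.73 in control arrays, a difference of −0.66 ± 0.15 (adjusted p = 0.0081). In Treg cultures the acetate arrays read 8.93 and 8.51, against 8.47 and 8.43 in control arrays, and in Th1 cultures 8.79 and 8.86, against 9.10 and 9.26. For the probe set used, the arms did not overlap in any subset, with acetate below control in Th17 and Th1 and above it in Treg cultures. The Treg and Th1 differences did not pass (0.27 ± 0.18, adjusted p = 0.38, and −0.35 ± 0.18, adjusted p = 0.28), and averaging the 6 probe sets of Acly also ended its Th17 call (adjusted p = 0.092).

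Me1, the cytosolic malic enzyme that makes NADPH for lipid synthesis, rose in Treg cultures. It read 4.52 and 4.25 with acetate, against 2.86 and 2.28 in Treg control arrays, a difference of 1.82 ± 0.40 (adjusted p = 0.011), with the control values near the low end of the arrays. In Th17 cultures it read 4.41, 3.56 and 4.24 with acetate, against 4.0, 3.94 and 3.62, and in Th1 cultures 5.14 and 6.00, against 4.68 and 4.81. The Th17 arms overlapped, and the Th1 arms did not, though that difference (0.82 ± 0.40, adjusted p = 0.26) did not pass. The Treg call was lost as deposited and without acetate replicate 1 or control replicate 2. Acaca, the cytosolic acetyl-CoA carboxylase, lay between 6.38 and 7.61 on all 14 arrays with overlapping arms in each subset, and its 95% interval in Th17 cultures ran −0.94 to 0.06. Averaged with a dimmer probe set, Acaca was called lower in Th17 cultures (−0.72, adjusted p = 0.034).

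Scd1, the desaturase that makes oleate from stearate, rose in Treg cultures to 9.64 and 9.50 with acetate, against 8.12 and 8.31 in control arrays, a difference of 1.35 ± 0.25 (adjusted p = 0.0046). Its Th17 values were 9.39, 8.81 and 8.90 with acetate, against 9.0, 8.60 and 9.11, and its Th1 values 9.12 and 8.84, against 8.41 and 9.07. Only the Treg arms were apart. Its isoform Scd2 read 10.93 and 10.95 in Treg acetate arrays, against 10.62 and 10.45 in Treg control arrays, without passing (0.41 ± 0.16, adjusted p = 0.11). Fads1, the desaturase of the polyunsaturated route, fell in Th17 cultures, with 5.45, 5.05 and 5.10 in acetate arrays, against 6.13, 5.85 and 6.25 in control arrays, a difference of −0.88 ± 0.27 (adjusted p = 0.034). That call was kept in 13 of 20 alternatives and lost in the leave-out of each Th17 control array. In Treg cultures Fads1 read 5.68 and 5.96, against 6.05 and 5.84, and in Th1 cultures 5.54 and 6.51, against 5.61 and 6.34, so that the arms overlapped. Elovl6, which lengthens palmitate, and Fads2, another desaturase of the polyunsaturated route, passed in no acetate comparison, and the interval for Fads2 in Th17 cultures was wide, −1.37 to 0.44.

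In the mevalonate arm, Mvk, the mevalonate kinase, rose in both Th17 and Treg cultures. Its Th17 values were 6.95, 6.79 and 7.16 with acetate, against 6.41, 6.27 and 6.20 in control arrays, a difference of 0.68 ± 0.15 (adjusted p = 0.0073). The Treg values were 7.33 and 7.33, against 6.72 and 6.62, a difference of 0.66 ± 0.18 (adjusted p = 0.032), and the Th1 values 6.84 and 6.98, against 6.38 and 6.51 (0.47 ± 0.18, adjusted p = 0.16). In every subset the acetate arrays lay above all control arrays. The Th17 call was lost as deposited (adjusted p = 0.45) and with the probe sets averaged, and the Treg call was lost in 8 of 20 alternatives, among them the leave-out of any Treg array.

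Pmvk, the next kinase, rose in Th17 cultures, with 8.65, 8.49 and 8.11 on acetate arrays, against 7.19, 7.18 and 7.15 on control arrays, a difference of 1.24 ± 0.30 (adjusted p = 0.011). The Treg arrays read 8.72 and 8.84 with acetate, against 7.63 and 7.71, a difference of 1.11 ± 0.36 that missed the threshold (adjusted p = 0.063). In Th1 cultures it read 8.50 and 8.66, against 7.42 and 9.02, so that the 2 control arrays enclosed the acetate arrays. The Th17 call held under all 20 alternatives run. Mvd, the decarboxylase that follows, rose in Treg cultures to 8.37 and 8.09, against 7.27 and 7.01 in control arrays, a difference of 1.09 ± 0.28 (adjusted p = 0.023), a call lost as deposited and without any 1 of the 4 Treg arrays. Its Th17 values were 7.94, 8.48 and 8.27 with acetate, against 7.62, 7.86 and 7.68, apart but not past the threshold (0.51 ± 0.23, adjusted p = 0.13), and its Th1 values 8.80 and 7.89, against 8.26 and 8.70.

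Fdps, the farnesyl diphosphate synthase at the branch to isoprenoids, rose in both Th17 and Treg cultures. It read 10.89, 10.62 and 10.76 in Th17 acetate arrays, against 10.45, 9.99 and 10.18 in control arrays (0.55 ± 0.16, adjusted p = 0.031). Its Treg values were 10.94 and 10.62, against 9.50 and 9.63 (1.21 ± 0.20, adjusted p = 0.0024), and in Th1 cultures 10.99 and 11.03, against 10.42 and 10.98 (0.31 ± 0.20, adjusted p = 0.39). All acetate arrays were above all control arrays of their subset. The Treg call was lost in 1 of 20 alternatives, the mean of probe sets, and the Th17 call in 6, among them the signals as deposited (adjusted p = 0.39) and 4 leave-outs of a Th17 array.

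Hmgcs1, the HMG-CoA synthase at the entry of the sterol route, passed in no acetate comparison. It read 10.18, 10.25 and 10.25 in Th17 acetate arrays, against 10.16, 9.98 and 10.39 in control arrays (0.05 ± 0.14, 95% interval −0.25 to 0.35). In Treg cultures it read 10.64 and 10.50, against 10.82 and 10.50, with an interval of −0.46 to 0.28, and in Th1 cultures 10.99 and 10.90, against 10.97 and 11.35. The arms overlapped in every subset. For the probe set used, the upper bounds in Th17 and Treg cultures lie below the measured differences of Mvk, Fdps and Fdft1. Dimmer probe sets of Hmgcs1 varied around these bounds. Some differed by 0.37 and 0.36 in Th17 and by 0.42 and 0.40 in Treg cultures, above them. Others differed by 0.08 and 0.14 in Th17 and by 0.17 and −0.005 in Treg cultures, below them. Idi1, the isopentenyl diphosphate isomerase, also passed in no acetate comparison, with an interval of −0.87 to 0.23 in Th17 cultures.

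**Figure D2:**
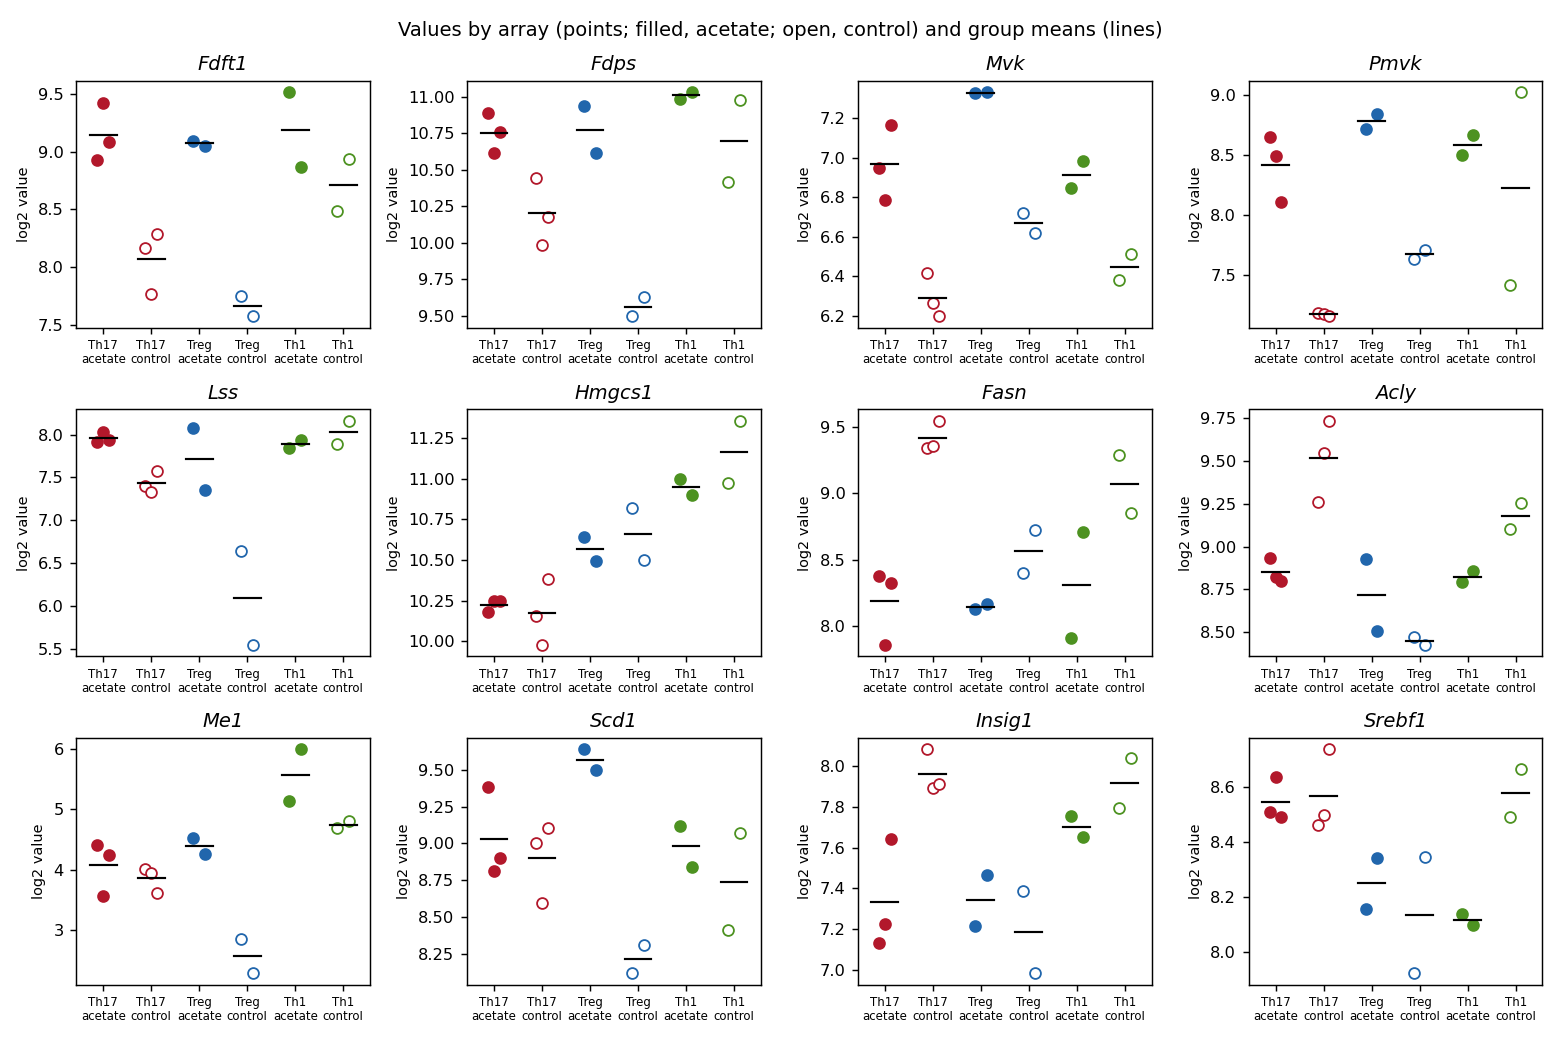
Log2 values of 12 members on every array; each panel is 1 gene with its own axis, filled points are acetate arrays, open points control arrays, and the line is the group mean. Acetate points lie above control points for Fdft1, Fdps and Mvk and below them for Fasn in Th17 and Treg cultures, while those of Hmgcs1 overlap in all 3 subsets.

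Fdft1, the squalene synthase that commits the pathway to sterols, rose in both Th17 and Treg cultures. The Th17 acetate arrays read 8.92, 9.42 and 9.08, against 8.17, 7.76 and 8.28 in control arrays, a difference of 1.07 ± 0.21 (adjusted p = 0.0034), or 2.10 times the control level. Its Treg values were 9.10 and 9.05, against 7.74 and 7.57, a difference of 1.42 ± 0.25 (adjusted p = 0.0037), and in Th1 cultures 9.52 and 8.86, against 8.48 and 8.94 (0.48 ± 0.25, adjusted p = 0.29). The arms were apart in Th17 and Treg cultures and overlapped in Th1 cultures. The Treg call held under all 20 alternatives run, and the Th17 call was lost as deposited (adjusted p = 0.084) and with the probe sets averaged.

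Lss, the lanosterol synthase, rose in Treg cultures, with 8.07 and 7.36 on acetate arrays, against 6.64 and 5.54 on control arrays, a difference of 1.62 ± 0.30 (adjusted p = 0.0046). The 2 control arrays themselves differed by more than a log2 unit, and the call was lost without control replicate 2 or acetate replicate 1. In Th17 cultures Lss read 7.91, 8.03 and 7.93, against 7.41, 7.34 and 7.57, apart but not called (0.52 ± 0.25, adjusted p = 0.16), and in Th1 cultures 7.84 and 7.93, against 7.90 and 8.16. Nsdhl, which removes methyl groups from the sterol ring, rose in Th17 cultures with 8.66, 8.30 and 8.0, against 7.74, 7.22 and 7.84 in control arrays (0.73 ± 0.24, adjusted p = 0.049), a call kept in only 7 of 20 alternatives. Treg arrays read 8.64 and 8.44, against 7.69 and 7.67 (0.86 ± 0.29, adjusted p = 0.073), and in Th1 cultures 8.66 and 8.12, against 7.93 and 8.68. Msmo1, the sterol methyl oxidase, read 8.62, 8.80 and 8.76 in Th17 acetate arrays, against 8.88, 8.23 and 8.65 in control arrays. Its Treg values were 8.84 and 8.47, against 8.22 and 7.86, and its Th1 values 9.54 and 9.18, against 8.88 and 8.94. It was apart in Treg and Th1 cultures and was called only for the mean of the subsets.

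The other sterol enzymes passed in no acetate comparison. Sqle, the squalene epoxidase, had intervals of −0.42 to 0.26 in Th17 and −0.05 to 0.79 in Treg cultures, and Cyp51, the lanosterol demethylase, of −0.27 to 0.70 and −0.04 to 1.15. Sc5d, a desaturase of late sterols, had −0.18 to 0.46 and −0.42 to 0.36, and Dhcr7, the last reductase, 0.01 to 0.87 and −0.52 to 0.54. The upper bounds of Sqle and Cyp51 in Treg cultures exceed 0.66, the smallest difference called there, and those of Cyp51 and Dhcr7 in Th17 cultures exceed 0.55, the smallest rise called there, so differences of that size are within their intervals.

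Among the regulators, Srebf1 and Srebf2 passed in no acetate comparison. In Th17 cultures the 95% interval was −0.34 to 0.30 for Srebf1 and −0.45 to 0.55 for Srebf2, and in Treg cultures −0.27 to 0.50 and −0.41 to 0.80. In Th1 cultures Srebf1 read 8.14 and 8.10 with acetate, against 8.49 and 8.67 in control arrays, below both and not past the threshold (−0.46 ± 0.18, adjusted p = 0.15). These are transcript levels, and SREBPs are controlled largely by cleavage of the protein, which was not measured.

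Insig1, itself a known SREBP target, fell in Th17 cultures, with 7.13, 7.22 and 7.64 on acetate arrays, against 8.08, 7.89 and 7.91 on control arrays, a difference of −0.63 ± 0.17 (adjusted p = 0.023). Its Treg values were 7.22 and 7.47, against 7.39 and 6.98, and in Th1 cultures 7.76 and 7.65, against 7.80 and 8.04. The Th17 call of Insig1 was kept in 14 of 20 alternatives. It was lost without any 1 of the 3 Th17 control arrays, without Th17 acetate replicate 1 or 2, and in the replicate block. Stard4 rose in Treg cultures, with 8.57 and 8.46 on acetate arrays, against 7.57 and 7.49 on control arrays, a difference of 0.98 ± 0.27 (adjusted p = 0.029), lost as deposited and without any 1 of the 4 Treg arrays. Its Th17 values were 8.12, 8.73 and 8.33, against 7.89, 7.82 and 8.0 (0.49 ± 0.22, adjusted p = 0.13), and its Th1 values 8.10 and 7.78, against 7.85 and 8.75.

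**Figure D3:**
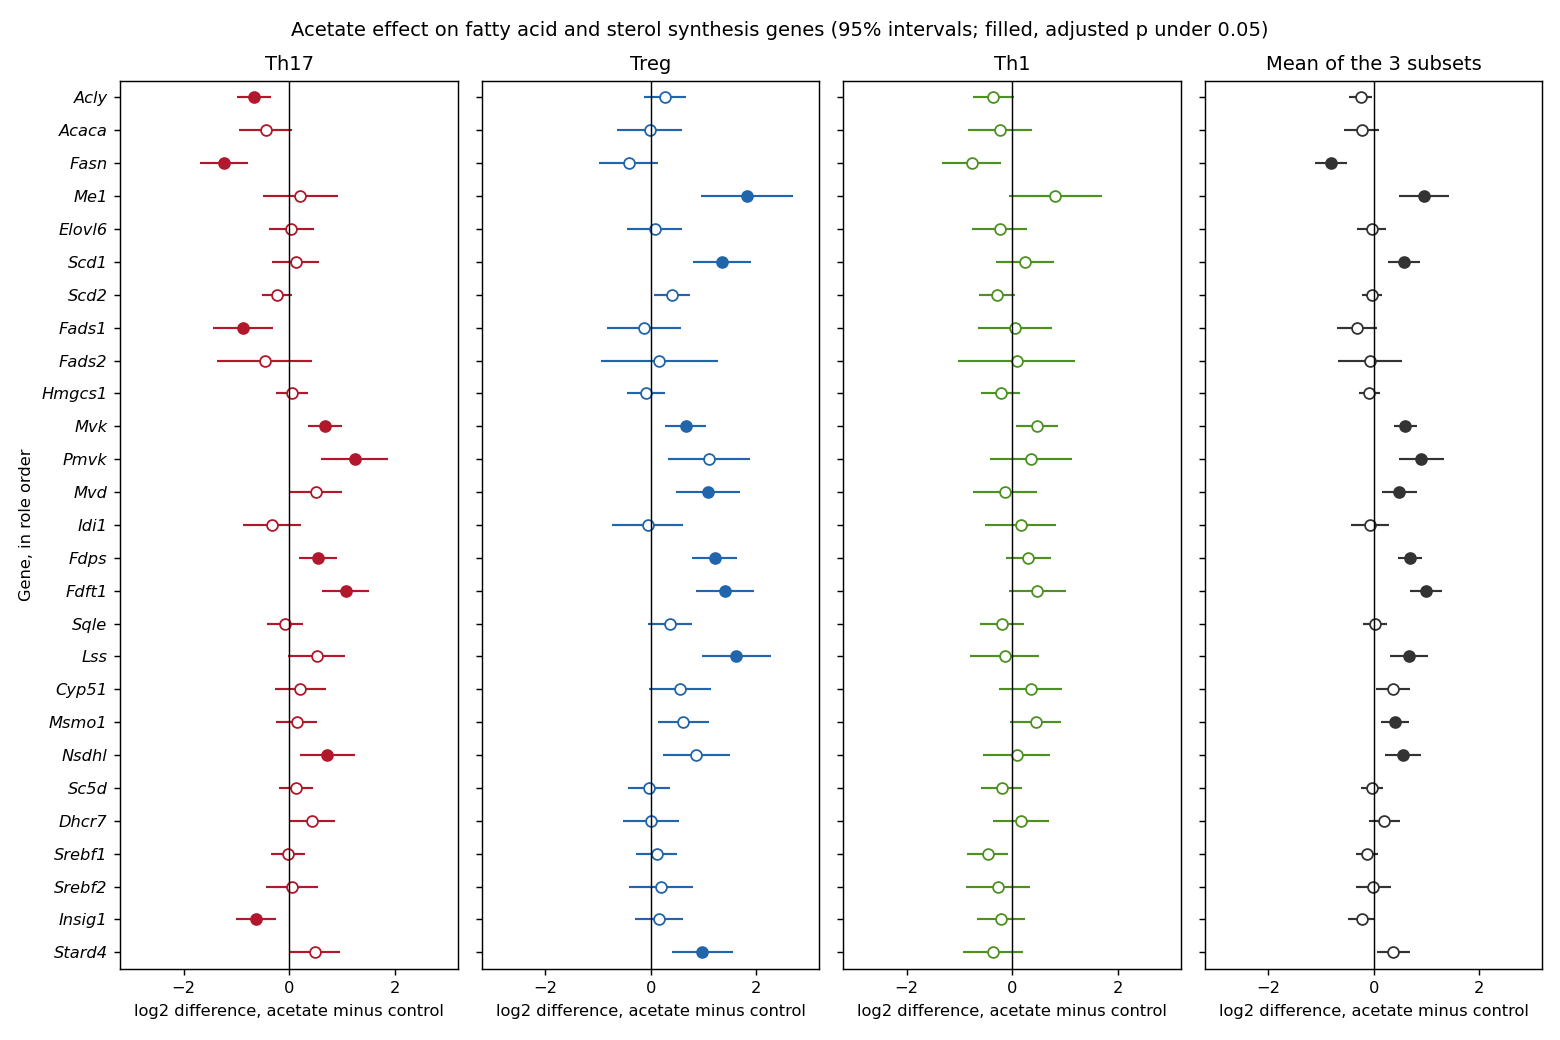
Log2 difference, acetate minus control, of the 27 tested members with 95% intervals, in Th17, Treg and Th1 cultures and for their mean; filled points passed at an adjusted p under 0.05. Filled points are 5 higher and 4 lower in Th17, 8 higher in Treg, 0 in Th1 cultures and 10 higher and 1 lower for the mean.

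Averaged over the 3 subsets with equal weight, 11 members were called, 10 higher and 1 lower, against 31.8% of all genes (17.6% higher and 14.1% lower). The 10 were 8 sterol enzymes, Fdft1 (0.99 ± 0.14, adjusted p = 2.1e-04), Pmvk (0.90 ± 0.20), Fdps (0.69 ± 0.11), Lss (0.67 ± 0.17), Mvk (0.60 ± 0.10), Nsdhl (0.56 ± 0.16), Mvd (0.49 ± 0.15) and Msmo1 (0.40 ± 0.12), with Me1 (0.95 ± 0.22) and Scd1 (0.57 ± 0.14), and the one that fell was Fasn (−0.80 ± 0.14, adjusted p = 0.001). Fasn, Me1, Scd1, Pmvk, Fdps and Fdft1 kept their calls under all 20 alternatives run. Over all 27 members the median of the mean effect was 0.03, the same as over all genes, since the fatty acid enzymes had a median of −0.07 and the sterol enzymes one of 0.45. As deposited, 6 members were called, 5 higher and 1 lower. The difference had the same sign in all 3 subsets in 12 members, 10 positive (37.0%) and 2 negative (7.41%, Acaca and Fasn), against 27.2% and 23.3% of all genes.

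The limma F test of whether the acetate effect differed between subsets passed for 0 of 27 members, against 0.797% of all genes, while 9 members had an unadjusted p under 0.05. The smallest adjusted p was that of Lss (0.13), with acetate differences of 0.52 (Th17), 1.62 (Treg) and −0.14 (Th1). Calls made in Th17 and not in Treg cultures, or the reverse, are therefore not shown to differ between the subsets. Leaving out Th1 acetate replicate 1 gave 2 members past the threshold (Scd2 and Mvd), and leaving out Th1 control replicate 1 gave 2 others (Pmvk and Stard4). In all, 15 members were called in at least 1 acetate comparison and 12 in none, and Mvk, Fdps and Fdft1 were called in both Th17 and Treg cultures. Single acetate comparisons called 3.98% (Th1) to 31.8% (mean of the subsets) of all genes. The shares of all genes called in at least 1, or in both Th17 and Treg cultures, are not given here. These counts can therefore not be read as a trait of the members.

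Among control cultures, which are also the baselines of the acetate comparisons above, Treg cultures had lower levels than Th1 cultures of 9 members and higher levels of 0, against 2.14% of all genes lower and 2.85% higher (4.99% in all). The 9 were the sterol enzymes Lss (−1.94 ± 0.30, adjusted p = 0.0033), Mvd (−1.33 ± 0.28), Fdps (−1.14 ± 0.20), Fdft1 (−1.05 ± 0.25), Sqle (−0.90 ± 0.19) and Msmo1 (−0.87 ± 0.22), and Me1 (−2.18 ± 0.40), Scd2 (−0.75 ± 0.16) and Acly (−0.73 ± 0.18). Scd2, called only between control cultures, averaged 10.53 ± 0.12 in Treg and 11.28 ± 0.24 in Th1 controls, and Sqle 7.61 ± 0.19 and 8.51 ± 0.03 (SD, n = 2 each). Treg arrays lay below all Th1 arrays for 21 members and above for 2, where 25.4% and 24.4% of all genes did so. Only 2 were called as deposited, and 2, 2 and 3 without Treg control replicate 1, Treg control replicate 2 and Th1 control replicate 2. Lss kept its call in all 20 alternatives run. Averaging the probe sets moved Acly to −0.05 (adjusted p = 0.95). The Gapdh 3′ to 5′ ratio was 1.22 to 1.23 in Treg controls and 0.998 to 1.05 in Th1 controls. Marker sums also differed between Treg and Th1 controls, at 12.9 to 13.2 and 8.09 to 10.0 for the CD8 T cell genes, 13.1 to 16.3 and 6.84 to 10.4 for the mast cell and basophil genes, and 13.1 to 13.3 and 11.3 to 11.4 for the NK cell genes, and 1 gene of each list was called higher. Their part was not tested.

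Th17 control cultures had higher levels than Treg control cultures of 7 members and lower levels of 0, against 5.31% of all genes higher and 6.01% lower (11.3% in all). These were Lss (1.35 ± 0.28, adjusted p = 0.0069), Me1 (1.29 ± 0.37), Acly (1.07 ± 0.17, adjusted p = 0.0013), Fasn (0.85 ± 0.24), Insig1 (0.78 ± 0.19), Fdps (0.64 ± 0.18) and Scd2 (0.61 ± 0.15). As deposited the count was 13. The removal of 1 Th17 control array left 3 or 4 members (replicate 1 or 2 gave 3, replicate 3 gave 3 higher and 1 lower), and the removal of a Treg control array left 3 (replicate 1) or 1 (replicate 2). Th17 arrays lay above all Treg arrays for 16 members and below for 5, where 26.7% and 27.9% of all genes did so. Averaging the probe sets moved Acly to 0.30 (adjusted p = 0.49) and Me1 to 0.45 (adjusted p = 0.44), and Me1 was kept in 9 of 20 alternatives. The Gapdh 3′ to 5′ ratio was 0.986 to 1.07 in Th17 controls and 1.22 to 1.23 in Treg controls, and the summed T cell markers were 37.7 to 38.0 and 40.1 to 40.7. The summed CD8 T cell genes were 9.67 to 12.7 in Th17 and 12.9 to 13.2 in Treg controls. Their part was not tested. Against Th1 controls, Th17 controls differed in 1 member, Hmgcs1, which was lower (−0.99 ± 0.16, adjusted p = 0.0025), against 6.60% of all genes called (2.99% higher and 3.62% lower). Hmgcs1 averaged 10.17 ± 0.20 in Th17 (SD, n = 3) and 11.16 ± 0.27 in Th1 controls (n = 2). All 14 sterol enzymes had negative differences there, with a median of −0.59, but without quantile normalization the median was 0.10 with 10 positive, the median of all genes was 0.62, and 4 members were called, all higher (Acly, Acaca, Fasn and Scd1). Th17 arrays lay above all Th1 arrays for 2 members and below for 11, where 20.3% and 23.6% of all genes did so. Without Th1 control replicate 1 the count was 5, all lower, and without Th1 acetate replicate 1 or 2 it was 2. Summed marker values in Th17 and Th1 controls were 12.8 to 13.9 and 6.84 to 10.4 for the mast cell and basophil genes and 12.7 to 13.6 and 11.3 to 11.4 for the NK cell genes. Those of the T cell markers were 37.7 to 38.0 and 39.6 to 40.8, and the part of these sums was not tested. The labelling protocols differ in wording between the Th17 samples and the Treg and Th1 samples, so subset and labelling cannot be told apart.

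**Figure D4:**
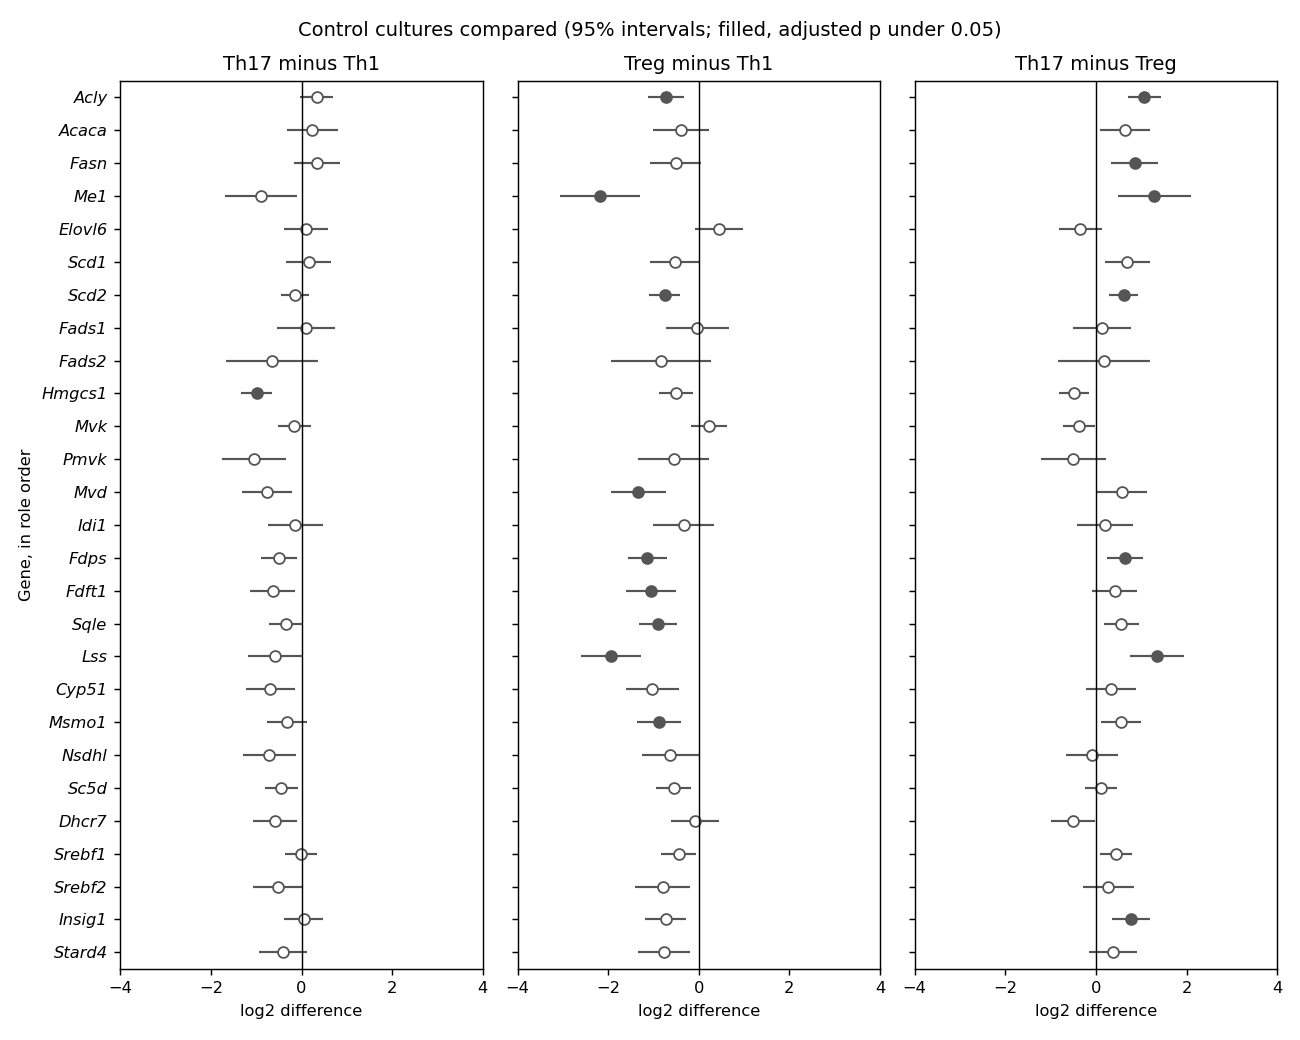
Log2 difference between control cultures of the 27 tested members with 95% intervals, for Th17 minus Th1, Treg minus Th1 and Th17 minus Treg; filled points passed at an adjusted p under 0.05. The filled points are 1 lower, 9 lower and 7 higher.

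Further genes of lipid and sterol metabolism were taken from a list of 26 genes, of which 21 were analysed on the array and 20 tested. In Th17 cultures 4 were called higher and 3 lower with acetate, in Treg cultures 2 higher, in Th1 cultures 1 higher, and for the mean 3 higher and 2 lower. Of all genes tested, 20.3%, 12.5%, 3.98% and 31.8% were called in these comparisons, so that the 2 calls in Treg cultures, the 1 in Th1 cultures and the 5 for the mean are near or below the shares of all genes. Hsd17b7, a reductase of the late sterol route, rose in Th17 (0.66 ± 0.18, adjusted p = 0.023) and Treg cultures (0.98 ± 0.22, adjusted p = 0.013), with a Th1 difference of −0.04 ± 0.22. Tm7sf2, the sterol C14 reductase, rose in Th17 cultures (0.95 ± 0.27, adjusted p = 0.027), and its Treg difference was 0.94 ± 0.33 (adjusted p = 0.085). Both enzymes belong to the same stretch of the route as Msmo1 and Nsdhl. The calls of both in Th17 cultures, and that of Hsd17b7 in Treg cultures, were lost as deposited, and each was kept in 14 of 20 alternatives. The Treg call of Hsd17b7 was lost in the leave-out of any Treg array.

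Insig2, the second INSIG, rose in all 3 subsets while Insig1 fell in Th17 cultures. It read 7.28, 7.41 and 7.37 in Th17 acetate arrays, against 6.76, 6.91 and 6.62 in control arrays (0.59 ± 0.15, adjusted p = 0.013). In Treg cultures it read 7.23 and 7.26, against 6.63 and 6.42 (0.72 ± 0.18, adjusted p = 0.02), and in Th1 cultures 7.22 and 6.98, against 6.33 and 6.39 (0.74 ± 0.18, adjusted p = 0.04). Each acetate array was above each control array of its subset. The mean effect, 0.68 ± 0.10 (adjusted p = 2.4e-04), held under all 20 alternatives run, but the Th1 call held in 5 of 20, and all 3 calls were lost as deposited.

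Mid1ip1, which activates acetyl-CoA carboxylase, fell in Th17 cultures, with 7.75, 7.59 and 7.82 on acetate arrays, against 8.81, 8.63 and 8.84 on control arrays (−1.04 ± 0.15, adjusted p = 6.8e-04), and for the mean (−0.48 ± 0.10, adjusted p = 0.0029), and both calls held under all 20 alternatives run. Acsl3, an acyl-CoA synthetase (−0.66 ± 0.20, adjusted p = 0.036), and Mbtps2, the site-2 protease that frees SREBPs (−0.77 ± 0.23, adjusted p = 0.029), fell there too, kept in 12 and 16 of 20 alternatives. Lpin1, a phosphatidate phosphatase, fell for the mean (−0.72 ± 0.24, adjusted p = 0.036), kept in 11 of 20. Acss2, which makes acetyl-CoA from acetate, rose in Th17 cultures, with 6.31, 6.73 and 6.58, against 5.68, 5.64 and 5.73 (0.86 ± 0.26, adjusted p = 0.032), and its differences were 0.13 ± 0.31 in Treg and −0.10 ± 0.31 in Th1 cultures. Its Th17 call was kept in 11 of 20 alternatives.

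Of 8 sterol export and LXR genes, 6 were analysed on the array and 4 tested, and the calls were all lower with acetate, 2 in Th17 and 1 in Treg cultures and 3 for the mean, where 8.66%, 5.44% and 14.1% of all genes were called lower. LXRs are receptors for oxysterols that switch on cholesterol export. Mylip, a ubiquitin ligase gene and known LXR target, fell in Th17 (−0.66 ± 0.21, adjusted p = 0.041, kept in 10 of 20 alternatives) and Treg cultures (−1.34 ± 0.26, adjusted p = 0.0053). It read 5.87 and 6.27 in Treg acetate arrays, against 7.23 and 7.59 in Treg control arrays, with no overlap, and its mean effect (−0.84 ± 0.14, adjusted p = 6.6e-04) held under all 20 alternatives run. Abca1, a cholesterol exporter, fell in Th17 cultures (−0.80 ± 0.26, adjusted p = 0.0465), a call kept in 10 of 20 alternatives, and for the mean (−0.56 ± 0.17, adjusted p = 0.025), kept in 14 of 20 with an adjusted p of up to 0.89. Abcg1, another exporter, fell for the mean (−0.66 ± 0.19, adjusted p = 0.018), kept in 16 of 20. In control cultures Mylip was higher in Treg than in Th1 cultures (1.79 ± 0.26, adjusted p = 0.0019).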

How the data were processed

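Per the submitters' processing notes the authors used MAS5; the values they deposited are linear intensities, 1 for each probe set of an array, and the scaling target was not stated. No signal was tested against background. Precision is limited by the number of arrays, and the 14 arrays were grouped by their labels.

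Of 45101 probe sets, 34945 carry 1 gene symbol, and each of 18193 genes was represented by the one with the highest mean over the 14 arrays. Values were log2(signal + 3), quantile normalized over all probe sets, and the 10916 genes whose mean reached the 40th percentile (log2 3.60, signal 9.11) entered the test. One limma model (version 3.58.1 in R 4.3.3) held 6 group means without covariates, leaving 8 residual degrees of freedom, with a trend in eBayes. Contrasts were acetate minus control per subset, their equal-weight mean, an F test on the differences between subsets, and the 3 differences between control cultures. The p-values of limma were adjusted over all tested genes by Benjamini-Hochberg, with a threshold of 0.05. The fit was tested on simulated data.

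The 29 genes, the further lists and the rule for naming genes (all 29; of other genes those called with acetate, and Acss2) were chosen with earlier results of these data known. Alternatives were the signals as deposited, a pseudocount of 1 or at the 50th percentile of the signals (10.8), no filter, the mean of a gene's probe sets, a replicate block and the removal of each array; a lone array was then assumed to vary like the other groups. Whether replicate numbers pair the arrays is not settled. Same-numbered deviations correlated at 0.15, 0.16 and −0.06 (Th17), 0.06 (Treg) and −0.16 (Th1), and differently numbered ones at −0.19 to 0.05 in Th17 cultures. With 2 arrays in a group, as in Treg and Th1 cultures, same- and differently numbered correlations differ only in sign, so they cannot show pairing. No 2 arrays were identical. The sources used here name no batch. Other probe sets of the members called in Th17 cultures had the opposite sign in 0 of 5 cases above the filter on low signals and in 3 of 11 with dimmer ones included (Acly and Fdft1); for the members called in Treg cultures this was 0 of 12.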

Additional observations from a re-analysis of the deposited data

Results flagged for a closer look

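Acly and Scd2 had acetate arrays on opposite sides of their control arrays in different subsets. For Acly the acetate arrays lay above both control arrays in Treg cultures (0.27 ± 0.18) and below all control arrays in Th17 (−0.66 ± 0.15) and Th1 cultures (−0.35 ± 0.18); the F test of the difference between subsets gave an adjusted p of 0.154. For Scd2 they lay above both control arrays in Treg cultures (0.41 ± 0.16) and below all control arrays in Th17 cultures (−0.23 ± 0.13); the F test gave an adjusted p of 0.210. Neither difference between subsets passed the threshold. The opposite directions depend in part on the probe set. The Acly probe set with a mean of 6.98 differed by −0.11 in Treg and 0.19 in Th1 cultures, and that with 8.95 by 0.21 and −0.38. The Scd2 probe sets with means of 7.97 and 7.18 differed by −0.07 and 0.08 in Th17 and by 0.49 and 0.68 in Treg cultures. With 2 or 3 arrays in a group, single arrays were not tested as outliers.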

How the results depend on the processing

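Of the single-gene results of the members under the 20 alternatives, 4106 kept their side of the threshold, 54 gained and 160 lost a call, and 0 called results changed sign. Without quantile normalization the members called numbered 5 in Th17 (1 higher, 4 lower), 4 in Treg, 6 for the mean, 4 for Th17 minus Th1, 2 for Treg minus Th1 and 13 for Th17 minus Treg; all genes called numbered 552 in Treg, 222 in Th1, 2308 for the mean, 3025 for Th17 minus Th1 (2903 higher and 122 lower) and 265 for Treg minus Th1; and the members' median was −0.19 in Th17, 0.21 in Treg, 0.16 in Th1, 0.31 for Th17 minus Th1, −0.51 for Treg minus Th1 and 0.90 for Th17 minus Treg. All-gene calls then split 467 higher and 1460 lower in Th17 (1275 and 945 after quantile normalization), 254 and 298 in Treg, 177 and 45 in Th1, 1018 and 1290 for the mean and 1327 and 229 for Th17 minus Treg. That setting also moved the median of all genes, to −0.29, −0.13, 0.23, −0.06, 0.62, 0.19 and 0.41 in the order of the contrasts, and members minus all genes came to 0.10, 0.33, −0.07, 0.10, −0.31, −0.70 and 0.49. The mean of probe sets gave 5 members in Th17 (2 higher, 3 lower) and 4 for Th17 minus Treg, members' medians of 0.15 for the mean and −0.55 for Treg minus Th1, and 54 genes in the F test. With no filter 285 genes were called in Th1. The replicate block, on numbers not shown to pair the arrays, gave 3 members for Th17 minus Treg, 226 genes in Th1 and 397 for Th17 minus Th1. Not every array correlated best with its own number.

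Leaving out 1 array gave 5 to 9 members called in Th17, 2 to 10 in Treg, 0 to 1 in Th1, 9 to 12 for the mean, 0 to 2 in the F test, 1 to 5 for Th17 minus Th1, 2 to 10 for Treg minus Th1 and 1 to 9 for Th17 minus Treg. All genes called ran 1365 to 2523 in Th17, 358 to 1638 in Treg, 74 to 957 in Th1, 2738 to 3668 for the mean, 1 to 520 in the F test, 219 to 1011, 134 to 723 and 479 to 1494 between control cultures. The members' median ran 0.03 to 0.17 in Th17, 0.28 to 0.50 in Treg, −0.28 to 0.085 in Th1, 0.0033 to 0.14 for the mean, −0.53 to −0.24 for Th17 minus Th1, −0.90 to −0.58 for Treg minus Th1 and 0.32 to 0.51 for Th17 minus Treg. The cause of these changes was not tested.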
